A study of Mus musculus with 28 samples.

Results

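The comparison set RNA of P19 cells at day 4 of retinoic acid against RNA of P19 cells at day 2 of retinoic acid with DMSO. P19 is an established mouse embryonal carcinoma line, a pluripotent tumour cell that turns towards the neural lineage in retinoic acid. The members were chosen by their titles, 2 libraries of day 4 and 2 libraries of day 2 DMSO, which are 4 of the 10 RNA libraries and 4 of the 28 samples of the series. The day 4 cells had received 1 µM retinoic acid for 4 days in serum medium and carried no further agent. The day 2 cells had received 1 µM retinoic acid for 2 days in the same medium, and 1 µL DMSO, the solvent control of a drug arm, was added after 24 hours. The labels give both groups the same source, neural stem and progenitor cells (NSPCs) from P19 cells, so the sources do not themselves name an earlier cell type at day 2. DMSO was added to the day 2 cells and not to the day 4 cells. Time in retinoic acid and the addition of DMSO therefore cannot be told apart in any difference given here. The series calls its replicates biological, and whether they were separate cultures is not stated in the labels. P-values therefore measure the spread between replicate libraries, which the fit estimated over all 10 RNA libraries.

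Retinoic acid, the active form of vitamin A, enters cells, is carried by the CRABP proteins, and is broken down by the CYP26 enzymes. It binds RAR receptors, which sit with RXR partners on paired AGGTCA-like sites in DNA and switch on early targets such as Hoxb1, Rarb and Cyp26a1. In the embryo it patterns the hindbrain and spinal cord and opens the way to neurogenesis, in which Notch signalling keeps progenitors dividing while proneural bHLH factors, which bind E-box sites such as CAGCTG, push single cells to become neurons.

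The promoters of 5 genes that the results turn on are shown first, as RefSeq gives them on GRCm38.p6, from 250 bases before to 50 bases after the gene start. Cyp26a1 (chr19:37697558-37697857, plus strand) and Rarb (chr14:16575427-16575726, minus strand) are early retinoic acid targets that moved in opposite directions. In both, capitals mark the retinoic acid element DR5, 2 copies of a 6-base half-site spaced by 5 bases. Hes5 (chr4:154960673-154960972, plus strand) is a Notch target, with capitals on GTGGGAA, the letters that the Notch cofactor RBPJ binds. Dll1 (chr17:15376883-15377182, minus strand; a second listed start, chr17:15375774-15376073, holds 0 matches), a Notch ligand, and Elavl3 (chr9:22051974-22052273, minus strand), a neuronal RNA-binding protein, have capitals on the E-box CAGCTG.
Cyp26a1: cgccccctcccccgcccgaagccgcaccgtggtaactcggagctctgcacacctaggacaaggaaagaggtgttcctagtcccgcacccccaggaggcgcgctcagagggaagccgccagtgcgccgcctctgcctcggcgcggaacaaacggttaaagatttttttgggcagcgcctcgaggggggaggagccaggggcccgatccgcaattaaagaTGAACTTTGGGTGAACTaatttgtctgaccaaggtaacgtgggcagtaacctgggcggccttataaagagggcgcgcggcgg
Rarb: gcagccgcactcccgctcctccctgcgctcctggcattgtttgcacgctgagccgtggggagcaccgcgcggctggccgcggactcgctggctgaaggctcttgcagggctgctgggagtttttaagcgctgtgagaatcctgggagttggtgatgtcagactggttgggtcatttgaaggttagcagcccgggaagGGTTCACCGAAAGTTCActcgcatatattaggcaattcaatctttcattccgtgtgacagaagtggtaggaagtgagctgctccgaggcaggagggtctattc
Hes5: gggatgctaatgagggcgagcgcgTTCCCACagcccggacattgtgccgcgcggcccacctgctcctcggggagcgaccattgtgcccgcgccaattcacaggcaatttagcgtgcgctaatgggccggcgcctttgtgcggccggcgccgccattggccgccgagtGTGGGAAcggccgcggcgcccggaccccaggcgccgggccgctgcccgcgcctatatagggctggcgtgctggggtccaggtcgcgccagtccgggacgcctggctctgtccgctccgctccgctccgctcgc
Dll1: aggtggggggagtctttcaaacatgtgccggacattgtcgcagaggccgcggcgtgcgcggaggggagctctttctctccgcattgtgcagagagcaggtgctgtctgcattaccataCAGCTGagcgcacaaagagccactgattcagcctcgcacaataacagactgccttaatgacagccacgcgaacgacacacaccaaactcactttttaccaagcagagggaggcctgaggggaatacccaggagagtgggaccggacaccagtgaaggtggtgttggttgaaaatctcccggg
Elavl3: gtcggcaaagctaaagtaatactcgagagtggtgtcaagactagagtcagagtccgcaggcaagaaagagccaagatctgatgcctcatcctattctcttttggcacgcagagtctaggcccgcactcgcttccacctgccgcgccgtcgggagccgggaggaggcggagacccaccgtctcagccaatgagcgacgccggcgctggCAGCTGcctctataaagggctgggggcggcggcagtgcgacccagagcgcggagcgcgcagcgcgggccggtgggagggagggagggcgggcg
The DR5 match reads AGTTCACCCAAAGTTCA on the minus strand at -32 in Cyp26a1 and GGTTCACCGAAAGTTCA on the plus strand at -53 in Rarb. Hes5 held GTGGGAA at -226 and at -83. CAGCTG began at -132 in Dll1 and at -43 in Elavl3.

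Nodal, its inhibitors Lefty1 and Lefty2, and the retinoic acid targets Cyp26a1 and Hoxb1 were lower at day 4 than at day 2 DMSO. Most tested genes of Hox paralogs 5 to 8, neurogenic transcription factors, young neurons and synapses were higher. All tested genes of the DNA replication and mitosis lists were lower. All 4 libraries were of like depth, with 19504297 and 18530534 estimated counts at day 4 and 19586374 and 18115926 at day 2 DMSO. Genes with at least 10 counts numbered 15449 and 15366 at day 4, against 14995 and 14885 at day 2 DMSO. edgeR's quasi-likelihood test, fitted over all 10 RNA libraries, tested 17789 genes. Of these, 5443 (30.6%) were called higher at day 4 and 5437 (30.6%) lower at a Benjamini-Hochberg adjusted p under 0.05, or 61.2% in either direction. At least a 2-fold change was met by 2656 called genes (14.9%) that were higher and 1763 (9.91%) that were lower. The median log2 fold change over all tested genes was 0. Because 61.2% of all genes were called, the counts of members below are read against 30.6% in each direction, and the sizes of the changes against a median absolute log2 fold change of 0.57. The 4 libraries hold bulk RNA, in which fewer cells of a type and less RNA per cell cannot be told apart.

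**Figure D1:**
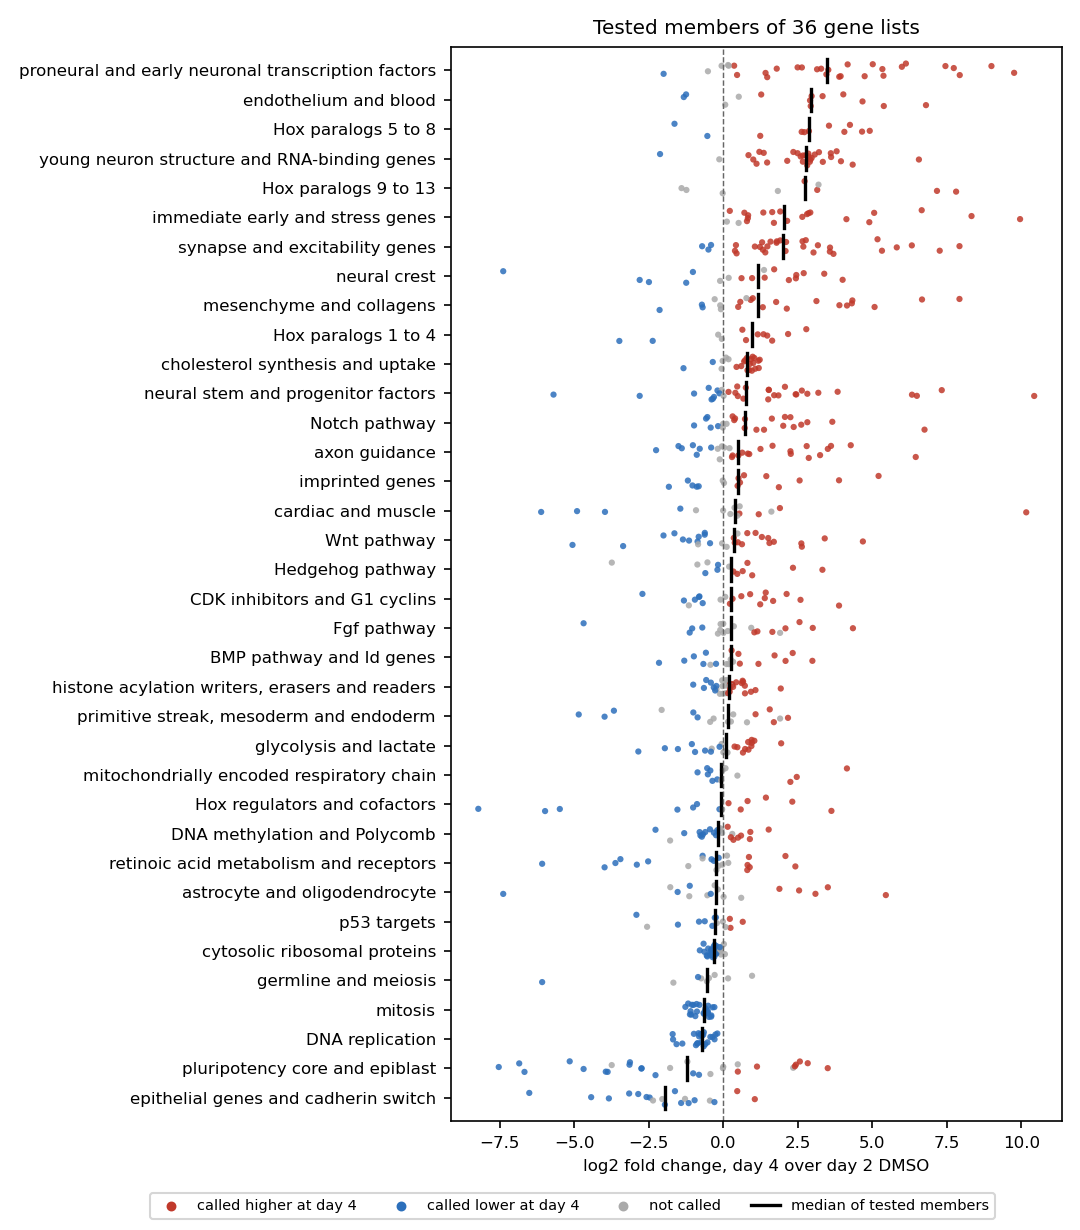
Log2 fold change, day 4 over day 2 DMSO, of every tested member of 36 gene lists, 1 point per gene, ordered by the list median (black bar). The proneural list has the highest median, 3.49, the epithelial list the lowest, -1.96, and all 49 members of the replication and mitosis lists lie below 0. Fitted values of genes with a group at 0 counts depend on the fit's prior count.

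One feature of the files touches all of these results. In the 4 day 2 libraries, DMSO and the drug MS-275 alike, 50.6% to 56.1% of the nonzero estimated counts were not whole numbers, against 62.6% to 63.4% in the 6 libraries of days 0, 4 and 8. Both day 2 groups thus stood apart from the other days in a property of the quantification, and its part in the differences was not tested. Replicates lay close together, with a Pearson correlation of log2 values across genes of 0.996 at day 4 and 0.997 at day 2 DMSO.

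**Figure D2:**
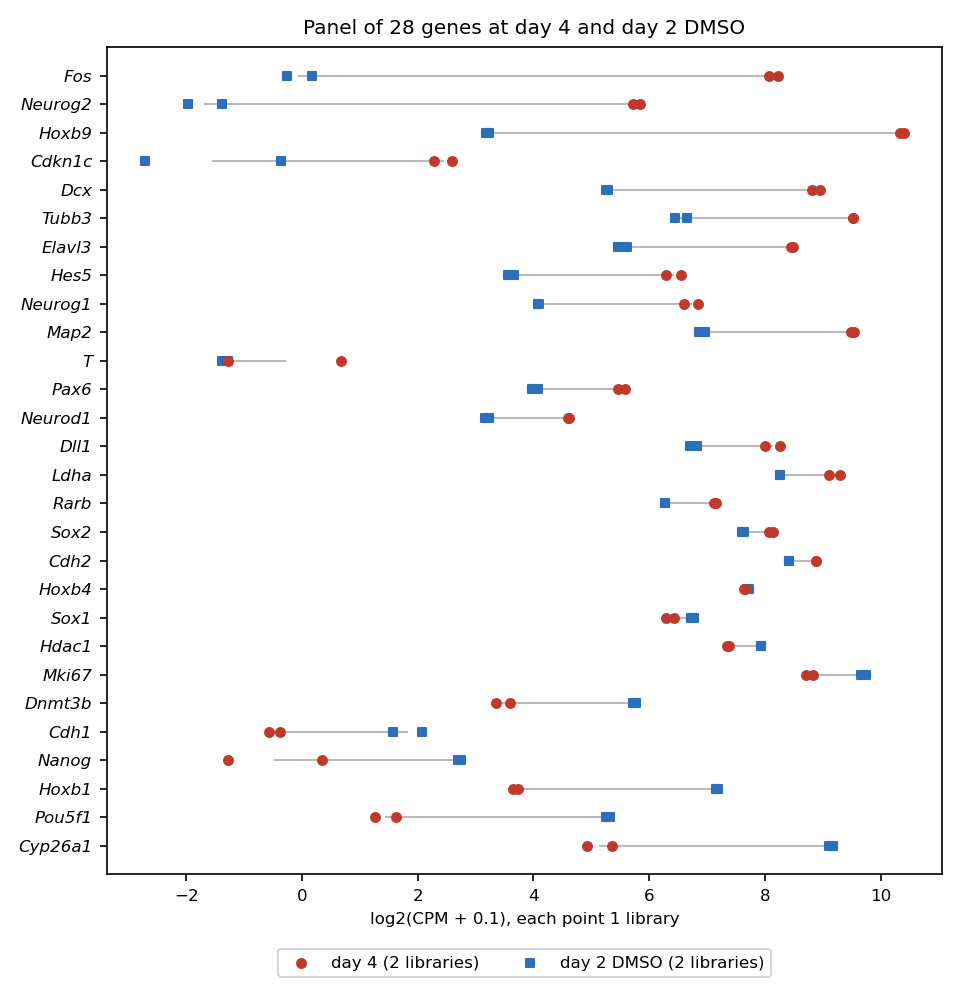
Levels of 28 genes of the panel as log2(CPM + 0.1), 1 point per library, ordered by fold change, with day 4 as circles and day 2 DMSO as squares; the grey line joins the group means. Fos, Neurog2 and Hoxb9 have the widest gaps upwards and Cyp26a1 and Pou5f1 the widest downwards, while the points of Hoxb4 nearly coincide and 1 of the 2 day 4 libraries of T lies beside those of day 2 DMSO.

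Retinoic acid was present in both groups, yet its early response genes divided. Cyp26a1, the enzyme that degrades retinoic acid and a standard readout of it, had 30.3 and 40.8 CPM (counts scaled to library size) at day 4, against 547 and 575 CPM at day 2 DMSO. Both day 4 libraries were more than 10-fold below both day 2 libraries, and the log2 fold change was -3.98 ± 0.10 (SE; edgeR adjusted p = 6.6e-15). The other CYP26 enzymes fell too: Cyp26b1 had 110.8 and 146.9 CPM at day 4 and 210.4 and 206.1 CPM at day 2 DMSO, and Cyp26c1 fell by 3.45 on the log2 scale. Crabp2, a carrier that hands retinoic acid to its receptors, had 76.4 and 81.5 CPM at day 4, against 973.5 and 965.7 CPM at day 2 DMSO. The related carrier Crabp1 rose, with a log2 fold change of 0.81. Nrip1, a corepressor that retinoic acid induces, had 55.0 and 49.8 CPM at day 4 and 293 and 308 CPM at day 2 DMSO.

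The receptors did not fall with these targets. Rarb, a receptor that is also a direct target, had 138.7 and 141.8 CPM at day 4, against 77.1 and 77.3 CPM at day 2 DMSO, a log2 fold change of 0.86 ± 0.09 (SE). Rara rose by a similar amount, with a log2 fold change of 0.89. Dhrs3, which turns retinal back into retinol, rose to 122.7 and 122.9 CPM at day 4, against 66.8 and 73.0 CPM at day 2 DMSO. Rarg, Rxra and Rxrb were not called, with log2 fold changes of -0.23, -0.15 and 0.13. Stra8, the meiosis gene named for its response to retinoic acid, had 0 and 0.056 CPM at day 4 and 2.30 and 2.22 CPM at day 2 DMSO. In all, 6 of the 23 tested genes of retinoic acid metabolism and reception rose, 10 fell and 7 were not called.

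The DR5 element of the promoters printed above was rare. It was searched as AGGTCA-like half-sites (A or G at the first base, G or T at the third) 5 bases apart on both strands, and 32 of 32851 promoter windows (0.0974%) held it. Among genes with a window, it was in 2 of 1722 that were at least 2-fold higher at day 4, in 5 of 1183 that were at least 2-fold lower and in 3 of the 9453 other tested genes. The 5 lower genes were Cyp26a1, Prokr2, Blvrb, Cfap45 and Gm4631, named after their values were seen. Rarb, with its log2 fold change of 0.86, counts among the other genes. A match is a description of these letters in these windows.

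Hox genes, which give cells their position along the head-to-tail axis, changed unequally by paralog number, the place of each gene in its cluster. Of the first paralogs, which retinoic acid induces first, Hoxb1 fell. Hoxb1 had 13.2 and 12.4 CPM at day 4, against 141.8 and 146.3 CPM at day 2 DMSO. Hoxd1 rose, with a log2 fold change of 1.64 from a mean of 2.37 CPM at day 2 DMSO. Paralogs 2 and 3 rose modestly, with log2 fold changes between 0.64 in Hoxa2 and 2.18 in Hoxd3. Hoxb4 was not called (edgeR adjusted p = 0.58), with 199.99 and 201.40 CPM at day 4 and 209.9 and 205.1 CPM at day 2 DMSO. Hoxa4 was also not called, at a log2 fold change of -0.17, while Hoxc4 and Hoxd4 rose by 1.48 and 2.79 on the log2 scale.

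Paralog group 5 was split, and all tested members of groups 6 to 8 rose. Hoxb5 rose, with a log2 fold change of 1.24, but Hoxc5 fell to 76.7 and 78.3 CPM at day 4, against 234.8 and 247.1 CPM at day 2 DMSO, and Hoxa5 fell by 0.53 on the log2 scale. Hoxc6 had 104.6 and 101.3 CPM at day 4 and 5.18 and 5.63 CPM at day 2 DMSO. Hoxb8 reached 920 and 970 CPM at day 4, against 133.7 and 124.0 CPM at day 2 DMSO. The most abundant of the ninth paralogs at day 4 was Hoxb9 (chr11:96271330-96276595), with 1352 and 1283 CPM at day 4 and 8.95 and 9.33 CPM at day 2 DMSO, a log2 fold change of 7.17 ± 0.12 (SE; edgeR adjusted p = 6.4e-17). Hoxa9 had 21.3 and 18.4 CPM at day 4 and 0.157 and 0 CPM at day 2 DMSO, a ratio of 243 with a 95% counting interval from 82.9 to 1182. Beyond the ninth paralogs no member was called: Hoxa10 averaged 0.403 CPM at day 4 and 0.107 CPM at day 2 DMSO, and 7 genes of paralogs 10 to 13 were too low to be tested. The counts were 8 higher and 2 lower of 12 for paralogs 1 to 4, 9 higher and 2 lower of 11 for paralogs 5 to 8, and 4 higher and 0 lower of 9 for paralogs 9 to 13.

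**Figure D3:**
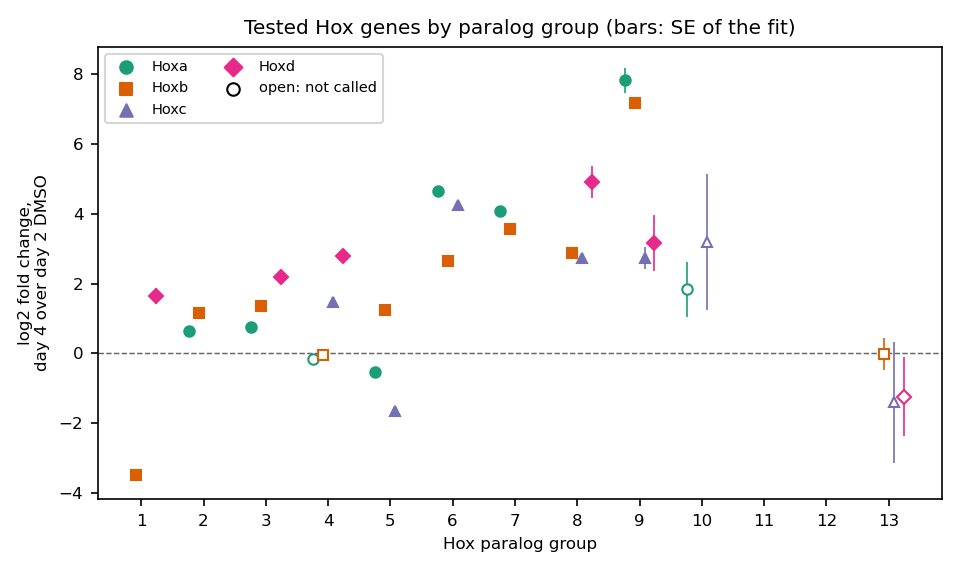
Log2 fold change, day 4 over day 2 DMSO, of tested Hox genes by paralog group, with the SE of the fit as bars; shapes are the 4 clusters and open points were not called. Hoxb1 lies at -3.49, paralogs 6 to 8 between 2.63 and 4.92, and Hoxb9 at 7.17.

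The factors that act on Hox genes divided as well. The caudal factors Cdx1 and Cdx2, which switch on trunk Hox genes in the embryo, were both near 0 at day 4. Cdx2 had no counts at day 4 and 1.94 and 1.99 CPM at day 2 DMSO, at least 24.2-fold lower where 3 counts over both libraries stand in for 0. Cdx1 had 0.157 and 0 CPM at day 4 and 5.08 and 5.97 CPM at day 2 DMSO. Of the cofactors that bind DNA beside Hox proteins, Meis3, Pbx3 and Pknox1 rose, with log2 fold changes of 1.43, 0.59 and 0.82, and Pbx2 and Pknox2 fell by 0.88 and 1.01.

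Pluripotency genes moved in both directions, and Nodal and its inhibitors had the largest falls among them. Nodal (chr10:61417972-61425338), the TGF-beta ligand of the early epiblast, had 0.052 and 0.389 CPM at day 4, against 40.5 and 42.0 CPM at day 2 DMSO. Its feedback inhibitors fell with it: Lefty1 (chr1:180935022-180938401) had 1.78 and 2.00 CPM at day 4 and 183.6 and 202.5 CPM at day 2 DMSO, a log2 fold change of -6.67 ± 0.19 (SE), and Lefty2 had one of -6.85 ± 0.24. Foxh1, the DNA-binding partner of the Smads downstream of Nodal, had 0.840 and 0.389 CPM at day 4, against 36.65 and 36.45 CPM at day 2 DMSO. In each of these 4 genes both day 4 libraries lay more than 10-fold below both day 2 DMSO libraries.

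Pou5f1 (OCT4), which holds cells in the pluripotent state, had 2.310 and 2.999 CPM at day 4 and 39.9995 and 38.04 CPM at day 2 DMSO. That fall followed a larger level at day 0, where the mean was 1418 CPM. The let-7 antagonist Lin28a had 3.62 and 3.22 CPM at day 4, against 122.8 and 121.5 CPM at day 2 DMSO, and Trim71, a let-7 target that keeps cells undifferentiated, fell by 3.13 on the log2 scale. Sall4 fell by 2.75 and Dnmt3b, the de novo DNA methyltransferase of the epiblast, by 2.27. Nanog was low in both groups, with 0.315 and 1.17 CPM at day 4 and 6.39 and 6.65 CPM at day 2 DMSO. Against these, Sox2 rose, with 281.5 and 268.5 CPM at day 4 and 193.0 and 199.0 CPM at day 2 DMSO; it marks both pluripotent and neural progenitor cells. Klf4, Klf2, Zic2, Foxd3, Pou3f1 and Tbx3 rose as well, so that 7 of 29 tested members were higher, 14 lower and 8 not called. The list's median log2 fold change was -1.20, or -1.01 with members of a group at 0 counts set at the floor.

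Most genes of the epithelial and cadherin switch list fell. Of 19 tested, 13 fell and 2 rose, with a median log2 fold change of -1.96, or -1.41 with groups at 0 counts set at the floor. These values also count Cdh2, Zeb1 and Zeb2, so they are not those of epithelial markers alone. The 2 that rose were Cdh2 and Zeb1, and Zeb2 was among the falls. Cdh1 (E-cadherin) had 0.577 and 0.667 CPM at day 4, against 2.88 and 4.09 CPM at day 2 DMSO, and Epcam fell by 1.62 on the log2 scale. Cdh2 (N-cadherin), the cadherin of the neural tube, rose to 473 and 472 CPM at day 4, against 340 and 343 CPM at day 2 DMSO. Zeb1, a repressor of E-cadherin, rose with a log2 fold change of 1.06 ± 0.07 (SE), while the related Zeb2 fell by 0.30. Markers of primitive streak, mesoderm and endoderm showed no common direction, with 4 higher, 5 lower and 8 not called of 17 tested. The streak gene T (Brachyury) had 0.3149 and 1.4997 CPM at day 4 and 0.3141 and 0.2843 CPM at day 2 DMSO; its call ended without day 4 replicate 2, where the log2 fold change was 0.08, and without either day 2 DMSO library, at 1.63 and 1.49.

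**Figure D4:**
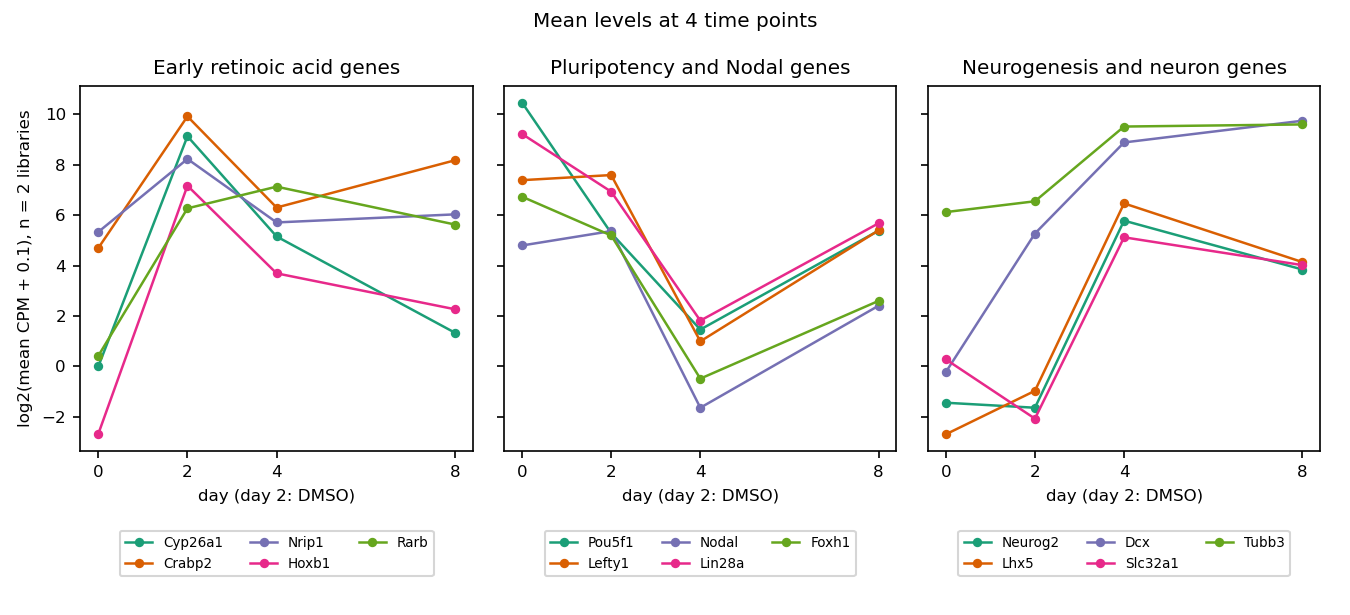
Mean level at days 0, 2 (DMSO), 4 and 8 of 5 genes in each of 3 groups, as log2(mean CPM + 0.1) over 2 libraries. The early retinoic acid genes other than Rarb are highest at day 2, the pluripotency and Nodal genes are lowest at day 4, and Neurog2, Lhx5 and Slc32a1 are highest at day 4 while Dcx and Tubb3 stay high at day 8.

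Over the whole course, Cyp26a1 averaged 0.899 CPM at day 0, 561 CPM at day 2 DMSO, 35.6 CPM at day 4 and 2.43 CPM at day 8. Lefty1 averaged 167.7 CPM at day 0, 193.1 CPM at day 2 DMSO, 1.89 CPM at day 4 and 42.1 CPM at day 8. Neurog2 averaged 0.268, 0.221, 55.0 and 14.3 CPM at days 0, 2, 4 and 8. The day 4 culture was thus the lowest of the 4 times for Lefty1 and the highest for Neurog2.

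Neural progenitor genes did not move as a block. Of 33 tested, 22 rose, 9 fell and 2 were not called, with a median log2 fold change of 0.76. Some general markers changed little. Nes (nestin) had 321.9 and 292.6 CPM at day 4 and 348.5 and 354.5 CPM at day 2 DMSO. Sox1 fell by 0.39 on the log2 scale, and Msi2 and Slc1a3 were not called. Large rises lay in factors and proteins of a later or more regional kind, though not only there. Pax2 (chr19:44746601-44838269), a factor of the midbrain border, hindbrain and spinal interneurons, had 183.0 and 179.1 CPM at day 4, against 1.05 and 1.19 CPM at day 2 DMSO. Pax8, its close relative, had 47.4 and 46.3 CPM at day 4 and 0 and 0.057 CPM at day 2 DMSO, a ratio of 1718 with a 95% counting interval from 308 to 67914. Fabp7, the fatty acid carrier of radial glia, had 212.1 and 206.8 CPM at day 4 and 1.99 and 3.24 CPM at day 2 DMSO. Vim (vimentin), a general marker, rose as well, as did the list members Notch1 and Hes5, given below. Vim had 1803 and 1686 CPM at day 4, against 196.2 and 186.2 CPM at day 2 DMSO.

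Dorsal factors of the neural tube rose in part. Zic1 reached 533 and 495 CPM at day 4, against 92.8 and 95.2 CPM at day 2 DMSO, and Pax3 had a log2 fold change of 1.71. Pax7, which overlaps with Pax3 in the dorsal tube, fell by 2.80. Pax6, made along much of the tube, had 47.9 and 44.2 CPM at day 4, against 16.75 and 15.58 CPM at day 2 DMSO. Dbx1, a factor of interneuron progenitors at the middle of the tube, rose to 69.29 and 69.65 CPM at day 4, against 11.9 and 10.4 CPM at day 2 DMSO. The floor plate markers Shh and Foxa2 were near 0 in both groups, Shh with no counts at day 4 and Foxa2 with 0.105 and 0 CPM at day 4 and 0.785 and 0.739 CPM at day 2 DMSO. The largest fall of the progenitor list was in Prtg (protogenin; chr9:72807274-72917307), a surface protein of the early neural tube that holds back neuronal differentiation, with 7.191 and 7.998 CPM at day 4, against 388.9 and 398.2 CPM at day 2 DMSO.

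Proneural and early neuronal transcription factors rose in 25 of 30 tested, with 1 lower and 4 not called, and their median log2 fold change of 3.49 was the highest of the 36 lists. Neurog2 (chr3:127632733-127635636), a bHLH factor that commits progenitors to the neuronal fate, had 52.9 and 57.2 CPM at day 4 and 0.157 and 0.284 CPM at day 2 DMSO, a log2 fold change of 7.94 ± 0.30 (SE; edgeR adjusted p = 8.2e-13). Neurog1 was already present at day 2 and rose to 114.6 and 96.4 CPM at day 4, against 17.1 and 16.8 CPM at day 2 DMSO.

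Factors that act after the proneural step gained as well. Nhlh1 and Nhlh2 had log2 fold changes of 4.74 and 3.52, Insm1 of 3.29, Myt1 of 5.99 and Ebf3 of 3.89, and all are made as cells leave the cycle. Neurod4 and Neurod1 rose, with log2 fold changes of 3.94 and 1.42. Neurod2 had 6.98 and 4.44 CPM at day 4 and no counts at day 2 DMSO, at least 70.3-fold higher. Factors that mark spinal and hindbrain classes of neurons were among them. Lhx5, of several interneuron classes, had 95.4 and 81.5 CPM at day 4, against 0.366 and 0.455 CPM at day 2 DMSO. Pou4f1 (Brn3a), of sensory and dorsal neurons, had 34.3 and 40.8 CPM at day 4 and 1.78 and 2.39 CPM at day 2 DMSO, and Isl1 rose with a log2 fold change of 2.49. Olig3 and Atoh1, of the dorsal progenitor domains, also rose: Olig3 had 20.2 and 20.4 CPM at day 4 and 0.157 and 0.057 CPM at day 2 DMSO, and Atoh1 had 3.31 and 3.44 CPM at day 4 and no counts at day 2 DMSO. Onecut1, Lhx1 and Neurod6 were not called, and Lhx2 fell to 8.45 and 9.22 CPM at day 4, against 34.6 and 36.2 CPM at day 2 DMSO.

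The structural genes of young neurons rose almost without exception, 28 of 30 tested, with a median log2 fold change of 2.79. Dcx (doublecortin; chrX:143855842-143933396), a microtubule protein of migrating neurons, had 496 and 451 CPM at day 4, against 38.2 and 39.0 CPM at day 2 DMSO, a log2 fold change of 3.62 ± 0.07 (SE). Tubb3 had 737 and 730 CPM at day 4 and 100.6 and 87.1 CPM at day 2 DMSO. Mapt (tau) started lower and gained more, with 117.9 and 110.4 CPM at day 4 and 1.099 and 1.308 CPM at day 2 DMSO. Elavl3, whose promoter is printed above, had 358 and 349 CPM at day 4, against 49.1 and 44.0 CPM at day 2 DMSO. Gap43, a growth cone protein, was not called at -0.13, and Nefh, the heavy neurofilament of mature axons, fell by 2.12 on the log2 scale.

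Axon guidance genes changed in both directions, 17 higher, 7 lower and 5 not called of 29 tested. Robo3 (chr9:37416045-37433436), which lets commissural axons cross the midline, had 751 and 754 CPM at day 4, against 9.32 and 7.73 CPM at day 2 DMSO, a log2 fold change of 6.46 ± 0.08 (SE). Dcc, the netrin receptor of the same axons, rose to 364.9 and 333.3 CPM at day 4, against 27.5 and 29.5 CPM at day 2 DMSO. Robo1 rose by 1.65 on the log2 scale and Robo2 was not called. Among the netrin receptors of the other class, Unc5c and Unc5d rose, with log2 fold changes of 0.87 and 2.25, and Unc5a and Unc5b fell by 1.39 and 0.89. Sema3a, a repellent ligand, fell to 6.77 and 8.11 CPM at day 4, against 35.4 and 35.5 CPM at day 2 DMSO.

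Every one of the 32 tested synapse and excitability genes was called, 29 higher and 3 lower, with a median log2 fold change of 2.00. Genes of inhibitory transmission were among the largest changes. Outside the list, Slc6a5 (chr7:49906984-49963864), the neuronal glycine transporter, had 43.4 and 32.8 CPM at day 4 and no counts at day 2 DMSO, at least 468-fold higher. Within the list, Slc32a1 (chr2:158607260-158615747), which loads GABA and glycine into vesicles, had 38.003 and 31.49 CPM at day 4 and 0.105 and 0.171 CPM at day 2 DMSO. The GABA-making enzymes Gad1 and Gad2 had log2 fold changes of 5.82 ± 0.26 and 6.33 ± 0.28 (SE). On the excitatory side, Slc17a6, the vesicular glutamate transporter of brainstem and spinal neurons, had 14.2 and 12.9 CPM at day 4 and 0.157 and 0 CPM at day 2 DMSO, while Slc17a7 rose by only 0.43 on the log2 scale. General vesicle genes rose less, with log2 fold changes of 3.18 in Syp, 2.77 in Snap25 and 1.41 in Syn1. Homer1, Gabra3 and Syn2 were the lower 3, at -0.50, -0.41 and -0.71; the call of Syn2 ended without day 4 replicate 1, at -0.46.

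In the Notch pathway, 16 of 24 tested genes rose, 5 fell and 3 were not called. Among ligands, Dll1 had 304.8 and 256.3 CPM at day 4, against 113.0 and 104.4 CPM at day 2 DMSO, Dll3 rose with a log2 fold change of 2.01, and Dll4 fell by 0.58. Dner, a neuronal Notch ligand-like protein, showed the largest change, with 168.3 and 162.3 CPM at day 4 and 1.78 and 1.25 CPM at day 2 DMSO. Of the receptors, Notch1 rose to 527 and 533 CPM at day 4, against 127.7 and 124.7 CPM at day 2 DMSO, Notch2 was not called and Notch3 fell by 0.17.

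The Notch targets divided within the Hes and Hey genes. Hes5 rose to 93.3 and 77.7 CPM at day 4, against 12.5 and 11.7 CPM at day 2 DMSO, and Nrarp, a feedback inhibitor, had a log2 fold change of 1.63. Hes1 fell to 20.5 and 22.8 CPM at day 4, against 43.1 and 42.1 CPM at day 2 DMSO, and Hey1 fell by 0.53. Other Hey genes were higher: Hey2 had a log2 fold change of 2.36, and Heyl had 3.67 and 3.33 CPM at day 4 and 0.419 and 0.114 CPM at day 2 DMSO. Hes6, which acts against Hes1 in differentiating neurons, had a log2 fold change of 2.62. GTGGGAA, searched on both strands, was in 6.38% of all windows, and in 6.18%, 6.09% and 6.30% of the windows of genes at least 2-fold higher, at least 2-fold lower and of the other tested genes. The E-box CAGCTG, which reads the same on both strands, was in 25.6% of the 1722 genes at least 2-fold higher, 17.8% of the 1183 at least 2-fold lower and 17% of the 9453 others. Genes with more listed starts have more windows. Counted by window, the shares were 20.8%, 15.4% and 14.7%, beside 16.3% of all 32851 windows. Another E-box, CAGATG, searched on both strands, was in 18.35%, 13.52% and 13.46% of the same gene groups, in that order. By window its shares were 14.85%, 11.45% and 11.6%, all below the 17.15% of all 32851 windows. Among tested members with a window, CAGCTG was in 6 of 19 Notch genes, 7 of 22 young neuron genes, 5 of 22 proneural genes, 5 of 22 synapse genes, 2 of 24 axon guidance genes and 1 of 25 progenitor genes. It was also in 7 of 23 DNA methylation and Polycomb genes.

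Genes of the cell cycle engine fell together. All 25 tested genes of DNA replication and all 24 of mitosis were called lower, beside 30.6% of all genes, with median log2 fold changes of -0.72 and -0.65. Mki67, the proliferation antigen, had 416.9 and 452.4 CPM at day 4, against 812 and 853 CPM at day 2 DMSO. The replication list spanned -1.70 in Pola1, the catalytic subunit of the priming polymerase, to -0.20 in Gins2, and the helicase subunit Mcm6 fell by 0.87. In the mitosis list, Cenpe, a kinetochore motor, fell by 1.27, Top2a by 1.05 and Ccna2 by 0.30. The falls were moderate, mostly under 2-fold, and the replication list still summed to 2809 and 2942 CPM at day 4, against 4633 and 4608 CPM at day 2 DMSO.

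Brakes on the cycle changed unevenly. In the list of CDK inhibitors and G1 cyclins, 11 of 20 tested genes rose, 6 fell and 3 were not called. Btg2, an antiproliferative gene of neurogenic divisions, had 196.3 and 179.0 CPM at day 4, against 30.4 and 31.8 CPM at day 2 DMSO. The CDK inhibitors Cdkn2c and Cdkn2d rose, with log2 fold changes of 2.13 and 0.90, Cdkn1b rose by 0.31, and Cdkn1a fell by 0.81. Cdkn1c had 5.93 and 4.78 CPM at day 4 and 0.052 and 0.682 CPM at day 2 DMSO. Ccnd1 and Ccnd2, cyclins of the G1 phase, changed in opposite directions: Ccnd1 rose to 99.4 and 87.9 CPM at day 4, against 36.9 and 32.9 CPM at day 2 DMSO, and Ccnd2 fell to 430 and 434 CPM at day 4, against 744 and 760 CPM at day 2 DMSO. The pocket protein Rbl2 rose with a log2 fold change of 1.67 and Rbl1 fell by 0.69.

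Markers of other cell types moved beside the neural genes. In the mesenchyme and collagen list, 15 of 22 tested members rose, 3 fell and 4 were not called, and the summed level was 2131 and 2317 CPM at day 4, against 830 and 853 CPM at day 2 DMSO. Col3a1 (chr1:45311538-45349706), a fibrillar collagen, had 436 and 496 CPM at day 4 and 1.62 and 2.22 CPM at day 2 DMSO, a log2 fold change of 7.93 ± 0.11 (SE; edgeR adjusted p = 9.7e-18). Col1a1 and Col1a2 rose with log2 fold changes of 5.08 and 3.90, and Pdgfrb, a receptor of mural and mesenchymal cells, of 4.31. Pdgfra, Fbn1 and Col5a1 were not called, and the basement membrane collagens Col4a1 and Col4a2 fell by 0.69 and 0.72. In the neural crest list, 10 of 18 rose and 5 fell. The sum was 1247 and 1198 CPM at day 4, against 602 and 619 CPM at day 2 DMSO. That sum includes Zic1, Pax3 and Pax7, given above as dorsal neural tube factors, with Zic1 a large part of it at day 4. It is therefore not a level of crest cells alone. Twist1 had 40.1 and 50.2 CPM at day 4 and 3.04 and 2.56 CPM at day 2 DMSO, and Tfap2a a log2 fold change of 2.70, whereas Sox10, the defining factor of migrating crest, had 0.052 and 0 CPM at day 4, against 6.07 and 5.12 CPM at day 2 DMSO. What part such cells have in the neural gene groups was not tested.

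Markers of muscle and vessel were low, and those of glia were mixed. The endothelium and blood list had 9 of 13 tested members higher and 2 lower, but its summed level was only 20.6 and 30.4 CPM at day 4, against 15.65 and 17.002 CPM at day 2 DMSO. Its median log2 fold change of 2.93 became 1.72 with members at 0 counts set at the floor. Cdh5, the endothelial cadherin, had 1.05 and 1.83 CPM at day 4 and 0.052 and 0.114 CPM at day 2 DMSO. Of 15 tested cardiac and muscle genes 4 rose and 4 fell, with sums of 48.0 and 57.3 CPM at day 4 and 35.6 and 39.5 CPM at day 2 DMSO; Tbx5 had 6.25 and 8.94 CPM at day 4 and no counts at day 2 DMSO. Among glial genes, Nfia and Nfib, the factors that open gliogenesis, rose: Nfia had 49.2 and 51.8 CPM at day 4, against 1.41 and 0.853 CPM at day 2 DMSO. The astrocyte marker Gfap stayed near 0, at means of 0.431 CPM at day 4 and 0.629 CPM at day 2 DMSO, and the glial list had 5 higher and 4 lower of 16. Its summed level was 620 and 632 CPM at day 4, against 387 and 368 CPM at day 2 DMSO.

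The secreted signals gave mixed counts. In the Wnt pathway 14 of 29 rose and 11 fell. Wnt4 had 71.0 and 70.8 CPM at day 4, against 3.09 and 2.39 CPM at day 2 DMSO, and the dorsal midline ligands Wnt1 and Wnt3a rose with log2 fold changes of 1.51 and 1.08. Among targets of Wnt signalling, Axin2 rose by 0.49 on the log2 scale, the feedback inhibitor Nkd1 by 2.64 and the receptor Lgr5 by 3.40. Not all targets in the list are given here, so no direction of Wnt targets as a class is given. Dkk1, a secreted Wnt inhibitor, fell by 3.36 and Sp8, a factor of the anterior tube, by 5.06. For Fgf signals, 7 of 20 rose and 4 fell: Fgfr1 fell by 1.04, Fgfr3 rose by 1.04, and the feedback inhibitors Spry2 and Spry4 had log2 fold changes of 2.558 and 3.003, while Dusp6 was not called at 0.01. In the BMP list 8 of 19 rose and 6 fell, led by Id4, a bHLH inhibitor, at 2.99 and Bmp6 at -2.16. In the Hedgehog list 7 of 14 rose and 3 fell; Boc, a Hedgehog coreceptor also used by commissural axons, rose to 327.5 and 302.5 CPM at day 4, against 62.1 and 62.4 CPM at day 2 DMSO, and the pathway targets Ptch1 and Gli1 had log2 fold changes of 0.34 and -0.53, of which that of Gli1 was not called.

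Metabolic genes changed by smaller amounts. Cholesterol synthesis rose as a group, 17 of 23 higher and 2 lower, with a median log2 fold change of 0.81. Hmgcs1 had 863 and 857 CPM at day 4, against 426 and 442 CPM at day 2 DMSO; it makes a precursor of mevalonate. Glycolysis had no common direction, 11 higher and 8 lower of 24. Pfkp rose to 179.5 and 156.5 CPM at day 4, against 38.5 and 49.1 CPM at day 2 DMSO, and Ldha and Ldhb rose by 0.94 and 0.95 on the log2 scale. The glucose transporters Slc2a1 and Slc2a3 fell by 1.05 and 1.52 and the lactate transporter Slc16a1 by 1.96. Of 32 cytosolic ribosomal protein genes 26 fell and 0 rose, with a median log2 fold change of -0.30 and a lowest value of -0.79 in Rpl3.

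Chromatin genes were mostly near level. Of 34 writers, erasers and readers of histone acylation 17 rose and 7 fell, with a median log2 fold change of 0.18. Mllt3 (AF9), a reader of acetylated and crotonylated lysine, rose to 163.6 and 152.6 CPM at day 4, against 40.5 and 42.5 CPM at day 2 DMSO. Hdac1 fell by 0.57 on the log2 scale and Hdac2 rose by 0.30, while Ep300, a writer, was not called at -0.01. In the DNA methylation and Polycomb list 8 of 25 rose and 12 fell. The de novo methyltransferases parted, with Dnmt3b at -2.27 ± 0.09 (SE) and Dnmt3a at 0.60 ± 0.04, and so did the Tet enzymes, with Tet1 at -0.77 and Tet3 at 0.89. Of 16 imprinted genes 9 rose and 5 fell. Igf2 (chr7:142650768-142666816), a growth factor made from the paternal allele, had 2205 and 2555 CPM at day 4, against 61.8 and 66.8 CPM at day 2 DMSO, a log2 fold change of 5.21 ± 0.07 (SE). Grb10 and Peg10 fell by 1.83 and 1.19.

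Immediate early and stress genes were higher at day 4 in 20 of 22 tested, with a median log2 fold change of 2.03 and 0 lower. Fos had 268 and 298 CPM at day 4, against 0.733 and 1.02 CPM at day 2 DMSO, Fosb 137.5 and 147.0 CPM at day 4 and 0.209 and 0.057 CPM at day 2 DMSO, and Egr1 812 and 929 CPM at day 4 and 9.27 and 7.90 CPM at day 2 DMSO. These genes respond within minutes to serum, handling and activity. For Fos and Egr1, day 2 DMSO was the lowest and day 4 the highest of the 4 times. Fos averaged 70.7 ± 9.20 CPM at day 0, 0.878 CPM at day 2 DMSO, 283 ± 21.0 CPM at day 4 and 28.5 ± 23.3 CPM at day 8 (SD, n = 2 each). Egr1 averaged 256.9 ± 9.49, 8.59, 870 ± 82.7 and 227.1 ± 173.9 CPM at the same times, so the day 8 libraries differed widely. Jun, Junb and Dusp1 had log2 fold changes of 2.65, 5.06 and 2.86. The labels do not say how long cultures were handled before lysis, and its part was not tested. Among p53 targets 3 of 14 rose and 7 fell, and among 9 tested germline genes 0 rose and 2 fell.

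The mitochondrially encoded genes are uncertain. Of 13, mt-Co2, mt-Atp6 and mt-Co3 were called higher and 6 lower, although most of the 13 are cut from shared precursor transcripts. mt-Co2 had 1619 and 1689 CPM at day 4 and 83.9 and 102.6 CPM at day 2 DMSO, while mt-Co1 had 11248 and 11274 CPM at day 4 and 11260 and 11468 CPM at day 2 DMSO. Predicted genes Gm10925 and Gm28661 were lower at day 4: Gm10925 had 380.9 and 325.3 CPM at day 4, against 2172 and 2066 CPM at day 2 DMSO, and Gm28661 had 1374 and 1289 CPM at day 4, against 3238 and 3420 CPM at day 2 DMSO. The sum of mt-Co2, mt-Atp6, mt-Co3 and 4 such genes, chosen after their values were seen, was 8193 and 7977 CPM at day 4 and 7998 and 8368 CPM at day 2 DMSO. The day 2 MS-275 libraries had the day 2 pattern, with means of 79.2 CPM for mt-Co2 and 1936 CPM for Gm10925. Gm28439, another gene of the sum, averaged 0 CPM at days 0, 4 and 8. Its means were 113.7 CPM at day 2 DMSO and 87.1 CPM at day 2 with MS-275. Counting can divide reads between near-identical sequences, so no change of mitochondrial RNA is given here.

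**Figure D5:**
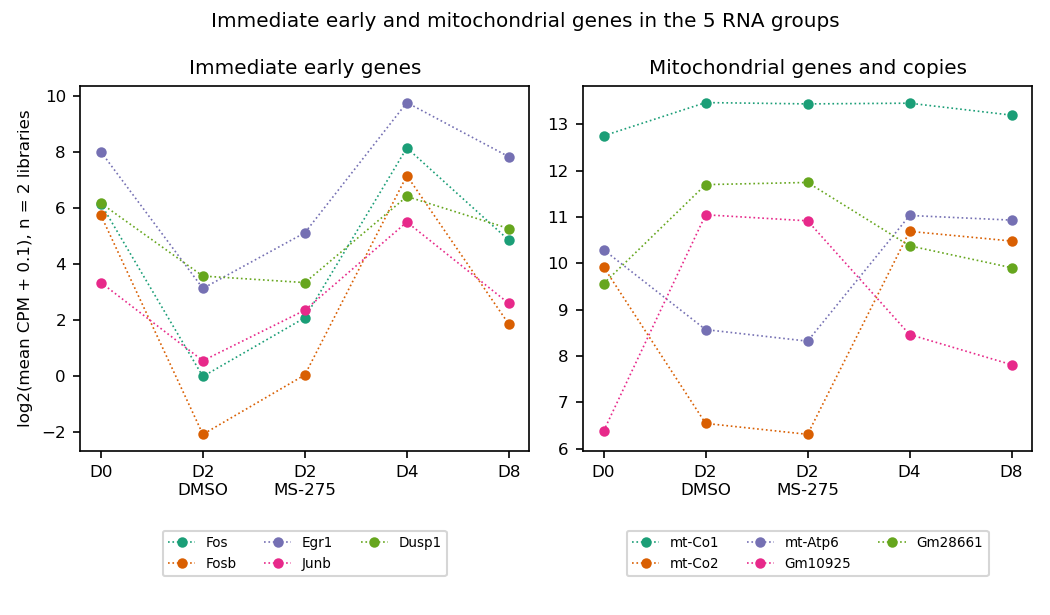
Mean level in all 5 RNA groups, in time order, of 5 immediate early genes and of 3 mitochondrial genes with 2 predicted genes, as log2(mean CPM + 0.1) over 2 libraries. Both day 2 groups lie low for the immediate early genes and for mt-Co2 and mt-Atp6, and high for Gm10925 and Gm28661.

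Beyond the lists, the 12 largest rises by fitted fold change held genes of several tissues. Fitted values of genes with a group at 0 counts depend on the fit's prior count, and so does their place in this ranking. Mlc1, an astroglial membrane protein, Bgn, a matrix proteoglycan, Ccn4, a Wnt-induced matrix protein, Rxfp1, the relaxin receptor, March4, a ubiquitin ligase, and Dmrtb1 each had no counts at day 2 DMSO, with lower bounds between 74.6-fold in Rxfp1 and 124-fold in March4. Lamp5, a membrane protein of some GABA neurons, had 18.3 and 18.7 CPM at day 4 and 0 and 0.057 CPM at day 2 DMSO. Of the 12 largest falls, Foxe3, a lens factor, had no counts at day 4 and 6.28 and 7.68 CPM at day 2 DMSO, Foxc2 had 0.052 and 0.111 CPM at day 4 and 4.76 and 5.80 CPM at day 2 DMSO, and Foxq1 had 0 and 0.111 CPM at day 4 and 6.18 and 7.11 CPM at day 2 DMSO. Serpinf1 (PEDF; chr11:75410029-75422623), a secreted factor that acts on neural stem cells and vessels, was the most abundant of them, with 8.19 and 7.55 CPM at day 4, against 396.9 and 408.4 CPM at day 2 DMSO, a log2 fold change of -5.67 ± 0.08 (SE). Csn3 had 0.315 and 0.111 CPM at day 4 and 15.5 and 16.5 CPM at day 2 DMSO.

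The chromatin files of the same times gave a second readout. Each holds the authors' peaks of 1 library of H3K9ac, H3K9cr (crotonylation) or H3K18la (lactylation), marks found at active promoters, with 2 libraries per mark at day 4 and 1 at day 2 DMSO, so no test was possible. A gene counted as marked with a peak within 1000 bases of a RefSeq start, at day 4 in both libraries. Of the 1722 genes at least 2-fold higher in RNA, H3K9ac marked 87.0% (exact 95% interval 85.3 to 88.5) at day 4 and 78.7% (76.7 to 80.6) at day 2 DMSO. Of the 1183 genes at least 2-fold lower, it marked 80.8% (78.5 to 83.0) at day 4 and 83.3% (81.0 to 85.3) at day 2 DMSO. The 9453 other genes were at 89.5% at day 4 and 88.5% at day 2 DMSO. H3K9cr gave similar shares, 85.3% at day 4 and 79.0% at day 2 DMSO for the higher genes, and 79.0% and 82.9% for the lower genes. H3K18la differed more: it marked 69.7% of the higher genes at day 4 and 59.2% at day 2 DMSO, and 53.6% of the lower genes at day 4 and 69.6% at day 2 DMSO, beside 77.6% and 79.1% of the others. Intervals cover counting over genes only, and the lists were of unequal length, with 54865 and 51057 H3K18la peaks at day 4 and 36382 at day 2 DMSO.

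Peaks at single genes are given by the authors' fold enrichment of the strongest peak at the start, which ranks peaks within a list. At Dcx, H3K9ac peaks had folds of 35.6 and 32.5 at day 4, and no peak was listed at day 2 DMSO. Slc32a1 and Col3a1 likewise had H3K9ac peaks at day 4, at folds of 17.9 and 17.4 for Slc32a1 and 12.5 and 9.11 for Col3a1, and none listed at day 2 DMSO. Neurog2 was already marked at day 2 DMSO, at a fold of 4.12, and had 25.9 and 22.0 at day 4. Cyp26a1 kept its H3K9ac peak, with folds of 27.3 and 43.1 at day 4 and 112 at day 2 DMSO. Rarb had folds of 129 and 133 at day 4 and 108 at day 2 DMSO. At Serpinf1 the folds were 5.36 and 4.11 at day 4 and 53.8 at day 2 DMSO, and at Nodal they were 15.2 and 8.02 at day 4 and 53.8 at day 2 DMSO. H3K18la peaks of Nodal were listed at day 2 DMSO, at a fold of 10.3, and not at day 4. Other genes had like folds despite their RNA: Fos had folds of 99.7 and 88.2 at day 4 and 94.4 at day 2 DMSO, and Fosb had 79.6 and 74.8 at day 4 and 68.1 at day 2 DMSO. Orc1, a replication gene whose RNA fell by 1.68 on the log2 scale, had folds of 88.1 and 89.9 at day 4 and 64.1 at day 2 DMSO. Folds from lists of different libraries were not normalized to each other, so no change in mark level is given.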

How the data were processed

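RNA was measured by poly(A) RNA-seq. The deposited table holds estimated counts per gene, which the authors left unscaled; the submitters' processing notes list Salmon 1.1.0 among the tools and no annotation release is stated. Of 55385 gene IDs, 55144 matched a symbol. Counts were rounded, filtered with filterByExpr and scaled with TMM factors in edgeR 4.0.16 (R 4.3.3). One quasi-likelihood fit over all 10 RNA libraries in 5 groups shared the spread, and day 4 minus day 2 DMSO was tested with Benjamini-Hochberg adjustment; SEs come from the fold change and the F statistic. The fit was also run on simulated counts in which few genes changed and all shared the same spread. In the data 61.2% of genes were called, so that run gives no error rate for them. Total counts per library limit precision, and intervals and floors (3 counts over a group) cover counting error only.

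The deposited peak lists give, per the file headers, the -log10 q-value and the fold enrichment, a ratio, of the authors' caller; the submitters' processing notes list the build GRCm38 and the tools MACS2 2.2.7.1 and Bowtie2 2.4.1. The lowest -log10 q-value was 2.00. Read depth of these libraries is unknown here. Promoter sequences and gene starts are RefSeq's (GRCm38.p6), which held 551 of 763 list genes.

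The 36 gene lists, the members and the tests were chosen with earlier results of these data known. Named genes are the 12 largest rises and falls (at least 2-fold, 5 CPM, groups not overlapping, no predicted or mitochondrial genes), the 3 largest called changes per list (1 CPM) with the largest the other way, and a panel of 30; others named are list members, given to describe their list after their values were seen. Some members of the lists and of the panel are not reported here. Genes whose fitted fold moved by over 1.5 times without 1 library are given by CPM, most without a fold. A gene with several IDs is given by the more abundant one. Alternatives were RLE and upper-quartile scaling, no filter, DESeq2 1.42.0, other sets of libraries, a replicate block and, added after the data were seen, protein-coding genes only. Whether same-numbered libraries are paired was checked from their deviations from the group means.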

Additional observations from a re-analysis of the deposited data

How the results depend on the processing

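No gene named by rule reversed in any alternative. Whether more genes were called higher or lower changed between alternatives. Called genes numbered 5153 higher and 4750 lower with DESeq2, 5656 and 5225 with RLE scaling, 5219 and 5706 with upper-quartile scaling, and 4707 to 5003 higher and 4708 to 4858 lower without 1 library; between 85.7% and 98.7% of the 10880 calls were kept. Scaling moved the median of all genes by at most 0.03 on the log2 scale. Replicate numbers did not pair the samples: deviations of same-numbered libraries correlated at -0.075 between day 4 and day 2 DMSO, and a replicate block gave 5415 higher and 5398 lower. Of 155 named genes, 4 lost their call somewhere, among them Syn2 (-0.46 without day 4 replicate 1), T (0.08 to 2.31 without 1 library) and Fgf10 in 8 alternatives, from -0.90 to -1.35.

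Small list counts moved. Without 1 library, called members ranged from 3 to 5 lower in Notch, 2 to 3 higher and 3 to 4 lower in primitive streak, 2 to 4 higher and 2 to 3 lower in cardiac, 1 to 2 lower in endothelium, 2 to 3 lower in Fgf, 1 to 3 lower in Hedgehog and 1 to 3 higher in p53 targets. In the germline list 1 gene was called higher with RLE, DESeq2, the 4 libraries alone or protein-coding genes only, and 3 imprinted genes were lower with protein-coding genes only. H3K18la shares of the higher genes were 67.4% at day 4 and 55.9% at day 2 DMSO with the window around starts narrowed, and 63.0% and 51.5% for peaks with a -log10 q-value of at least 5; those of the lower genes were then 45.5% and 63.7%. A narrower window or a stricter cutoff can only keep or lower such shares, and the protein-coding run leaves out non-coding members of the lists. The cause of the other moves was not tested. With 2 libraries a group, changes of genes under about 1 CPM rest on few counts.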

Other observations

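A group of genes outside the lists was high at day 2 and was chosen after its values were seen. Cyp1a1, the enzyme by which activity of the aryl hydrocarbon receptor is commonly read, had 0.315 and 0.611 CPM at day 4, against 16.2 and 16.4 CPM at day 2 DMSO, a log2 fold change of -5.13 ± 0.22 (SE; edgeR adjusted p = 1.2e-11). Cyp1b1 had 4.04 and 2.78 CPM at day 4, against 31.9 and 33.7 CPM at day 2 DMSO, and the quinone reductase Nqo1 had 0.840 and 1.06 CPM at day 4 and 15.8 and 14.6 CPM at day 2 DMSO. The receptor Ahr itself had 2.83 and 2.50 CPM at day 4, against 23.9 and 25.7 CPM at day 2 DMSO. Its feedback gene Tiparp fell by 1.195 on the log2 scale and Ahrr by 0.91. All 6 genes looked at were called lower at day 4, beside 30.6% of all genes. They were chosen after their values were seen, so that count carries no weight. Cyp1a1, Cyp1b1, Nqo1, Ahr, Tiparp and Ahrr had higher means in both day 2 groups than at days 0, 4 and 8. For Ahrr the gap was small, with 3.87 CPM at day 2 with MS-275 and 3.502 CPM at day 0. The mean of Cyp1a1 was 0.352 CPM at day 0, 44.9 CPM at day 2 with MS-275 and 0 CPM at day 8. MS-275 and DMSO were added only in the day 2 arm, so day and addition cannot be told apart.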
